A study of Mus musculus with 43 samples.

Results

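The cytochrome P450 genes were examined in RNA-seq of S1, S2 and S3, the successive segments of the proximal tubule, dissected from kidneys of female mice. Members were taken by gene symbol: Cyp, a family number, a subfamily letter and a gene number, with the 8 Cyp4a genes and Cyp27b1, Cyp24a1 and Cyp2r1 left out. The pattern matched 98 of the 54532 genes in the table, and 87 members in 34 subfamilies remained. All 87 are annotated in the table as cytochrome P450. The mice were female C57BL/6 animals 6 to 8 weeks old with no treatment named, and each sample held 2 to 5 tubules. The labels list 6 RNA-seq libraries for S1, as many for S2, and 7 for S3. Their titles carry 2 different numbers among S1 libraries, 3 among S2 and 4 among S3, and the labels do not say whether a number stands for an animal. S1 and S2 libraries share no title number, while S3 libraries share some with each. Between S1 and S2, segment therefore cannot be told apart from whatever the number stands for. Expression was deposited as TPM (a transcript level scaled to transcript length and to the total of the column), with 1 value per gene and segment. No SD, n or test can therefore be given for any value below. Every difference describes these 3 columns, and the read depth behind them is unknown.

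Cytochromes P450 are heme enzymes that insert oxygen into lipids, steroids, drugs and toxicants. Most sit in the endoplasmic reticulum and take electrons from P450 reductase, while a few sit in mitochondria and take them from ferredoxin. In the kidney the family is known for making epoxy and hydroxy derivatives of arachidonic acid, which act on salt transport and vessel tone, and for oxidising foreign compounds in proximal tubule cells.

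Of the 87 members, 33 reached 1 TPM in at least 1 segment and 54 did not, beside 16053 of all 54532 genes that reached it. These 33 are the members that passed this level, not the whole family. Members with at least 1 TPM numbered 24, 26 and 21 (S1, S2, S3). These are 27.6%, 29.9% and 24.1% of the members, beside 22.3%, 27.7% and 23.6% of all genes, which were also most often at this level in S2. At 10 TPM or more there were 9, 14 and 8, and at 100 TPM or more 2, 5 and 3. The summed level of all 87 members was 1755, 2337 and 1908 TPM, or 0.176%, 0.234% and 0.191% of the column totals. The largest pool was less than 1.5 times the smallest, but different genes filled it. In S1, Cyp2d26 made up 46.3% of it and Cyp2j5 31.9%. In S2, Cyp2a4 made up 26.2% and Cyp2j5 26%, and in S3 Cyp2a4 made up 49.2% and Cyp2j5 22.1%. In bulk samples such as these, fewer cells of a type and less RNA per cell cannot be told apart.

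**Figure D1:**
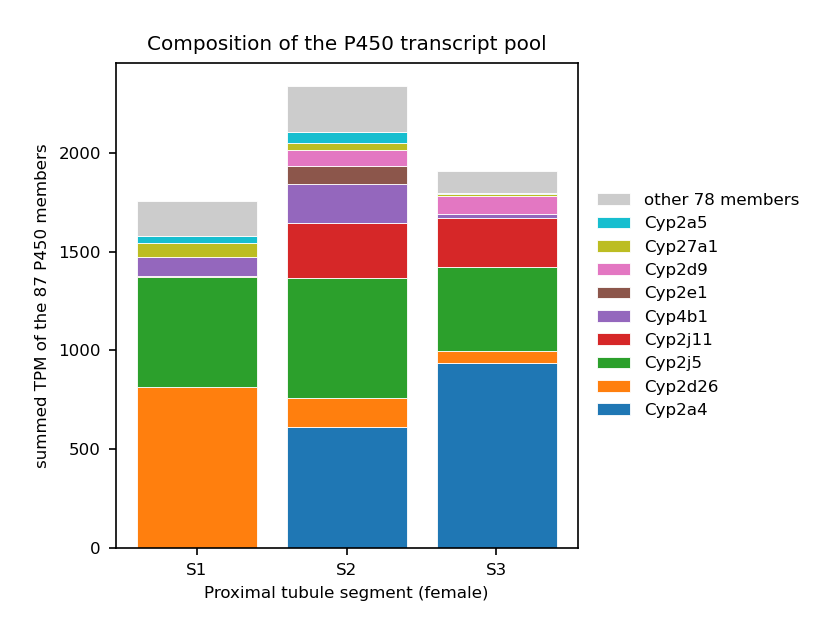
Summed TPM of the 87 P450 members (vertical axis) in female S1, S2 and S3, split by colour into the 9 members with the highest TPM in any segment and the other 78. Bars are single deposited values without error; Cyp2d26 fills the base of S1 (812 TPM), Cyp2a4 that of S3 (937.8 TPM), and Cyp2j5 is large in each.

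The promoters of 3 pairs of genes are shown, each pair from 1 gene cluster, because the levels of the genes in a pair ran differently along the tubule. The letters are the 250 bases before the start given with each promoter in RefSeq (GRCm38.p6), written 5′ to 3′ on the gene's strand. Cyp2a4 and Cyp2a5 come first, with the bases that differ between them in capitals.
Cyp2a4: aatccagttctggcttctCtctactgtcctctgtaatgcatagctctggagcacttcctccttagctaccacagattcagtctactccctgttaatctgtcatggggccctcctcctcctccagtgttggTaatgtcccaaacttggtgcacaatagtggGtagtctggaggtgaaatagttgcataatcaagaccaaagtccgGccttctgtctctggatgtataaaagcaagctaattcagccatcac
Cyp2a5: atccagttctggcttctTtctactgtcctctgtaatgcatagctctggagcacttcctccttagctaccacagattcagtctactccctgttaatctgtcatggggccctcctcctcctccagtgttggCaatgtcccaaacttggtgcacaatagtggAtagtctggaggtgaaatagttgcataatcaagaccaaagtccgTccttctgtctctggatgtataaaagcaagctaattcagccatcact
The windows lie at chr7:26306942-26307191 and chr7:26835089-26835338, both on the plus strand. Over 249 aligned bases they differ at 4 positions, T18C, C130T, A160G and T204G, with the Cyp2a5 base first and positions counted from 1 at the 5′ end of the Cyp2a5 window.

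The other pairs come from the Cyp2d and Cyp2j clusters, and their capitals mark matches to the motifs described further down.
Cyp2d26: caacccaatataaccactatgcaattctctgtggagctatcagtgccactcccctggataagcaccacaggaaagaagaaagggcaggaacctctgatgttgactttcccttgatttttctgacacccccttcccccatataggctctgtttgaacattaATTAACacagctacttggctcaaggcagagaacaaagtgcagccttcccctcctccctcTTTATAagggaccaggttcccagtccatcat
Cyp2d9: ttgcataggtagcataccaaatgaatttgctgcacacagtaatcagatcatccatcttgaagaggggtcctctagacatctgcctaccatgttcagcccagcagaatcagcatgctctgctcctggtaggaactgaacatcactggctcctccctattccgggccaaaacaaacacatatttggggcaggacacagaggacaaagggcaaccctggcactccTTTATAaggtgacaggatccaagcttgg
Cyp2j5: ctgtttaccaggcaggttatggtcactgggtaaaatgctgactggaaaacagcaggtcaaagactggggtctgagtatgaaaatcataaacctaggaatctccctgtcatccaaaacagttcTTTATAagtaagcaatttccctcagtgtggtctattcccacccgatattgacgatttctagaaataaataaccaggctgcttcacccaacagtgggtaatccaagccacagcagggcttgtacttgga
Cyp2j11: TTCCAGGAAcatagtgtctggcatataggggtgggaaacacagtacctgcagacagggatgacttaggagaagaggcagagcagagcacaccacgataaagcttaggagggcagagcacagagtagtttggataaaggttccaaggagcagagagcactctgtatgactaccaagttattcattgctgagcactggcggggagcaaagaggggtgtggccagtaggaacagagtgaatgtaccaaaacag
These windows lie at chr15:82794246-82794495 (minus strand), chr15:82452127-82452376 (plus), chr4:96664120-96664369 (minus) and chr4:96348681-96348930 (minus). The RefSeq spans of Cyp2d26, Cyp2j5 and Cyp2j11 end at 82794452, 96664171 and 96348693, inside their windows. For these genes the window lies partly within the gene's span, and the start used is not the span's outer limit. In Cyp2d26 most of the window, with its marked matches, lies within the span. In Cyp2j5 and Cyp2j11 a smaller part does, without the marked matches.

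Differences between segments were taken on the log2(TPM + 1) scale, and a gene was counted when the difference was at least 1, which is 2-fold on that scale. The scale understates the fold of low genes, so folds in the text are plain ratios of TPM, used when neither value is under 1. Between their highest and lowest segment, 22 of the 33 members differed at least 2-fold, beside 33.3% of the 16053 genes compared. By the segments within 2-fold of a gene's highest, 5 were highest in S1, 7 in S1 and S2 together, 2 in S2, 7 in S2 and S3 together and 1 in S3, and 11 stayed under 2-fold throughout. For S1 against S2, 5 members were higher in S1 (6.62% of all genes compared) and 9 lower (17.7% of all genes). Quantile normalization gave 8 higher and 8 lower instead. For S1 against S3, 14 were higher in S1 (10.5% of all genes) and 6 lower (13.1%). For S2 against S3, 8 were higher in S2 (8.74%) and 1, Cyp7b1, lower (2.24%). With pseudocount 0.1 in place of 1 these counts were 18 and 2. The median difference of the 33 members was -0.45 from S1 minus S2, and 0.53 both for S1 less S3 and for S2 less S3. Over all genes compared the medians were -0.18, -0.01 and 0.12. These 3 comparisons share columns, so their counts are not independent of each other.

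**Figure D2:**
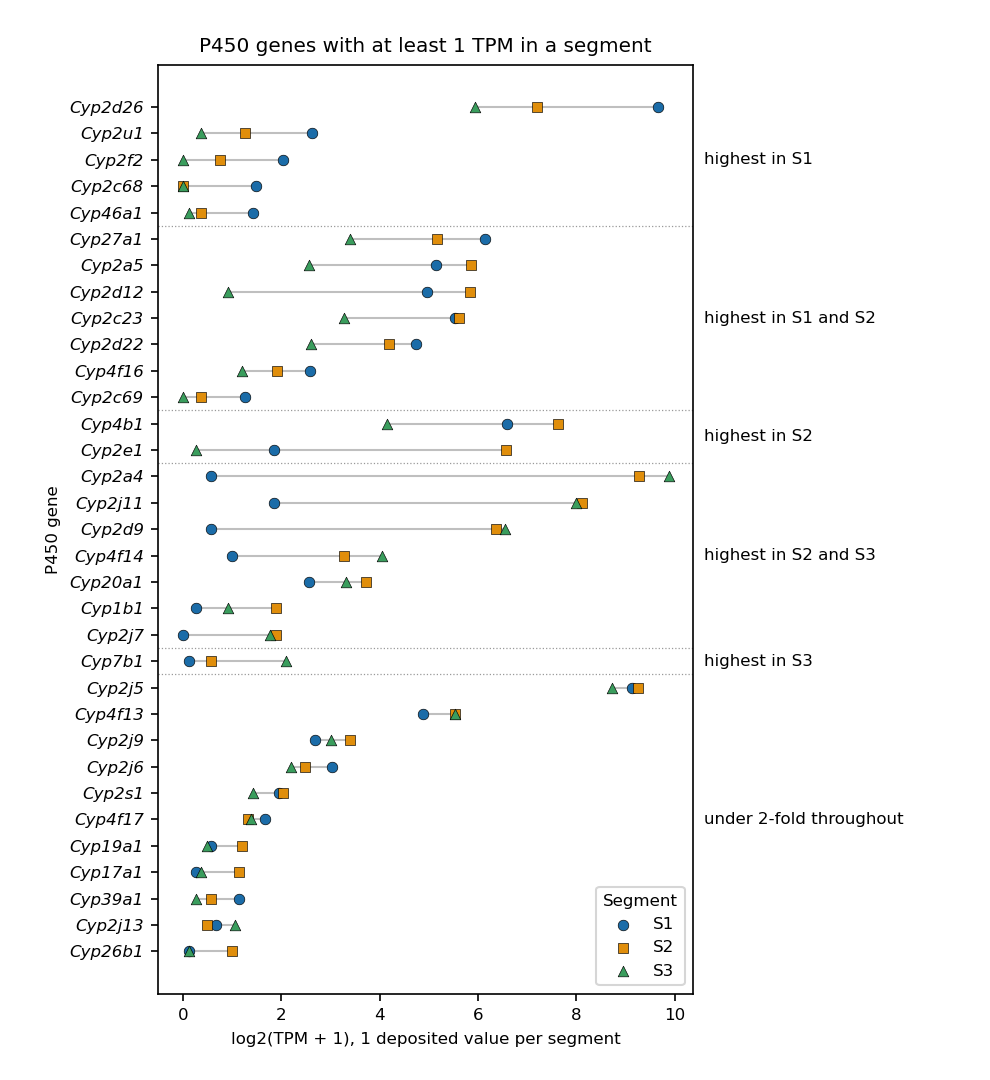
Level of the 33 P450 members with at least 1 TPM, as log2(TPM + 1) (horizontal axis), with 1 point for each of S1, S2 and S3 and genes grouped by the segments that lie within 2-fold of their highest. Cyp2a4, Cyp2j11 and Cyp2d9 show the widest gap between S1 and the other segments, and Cyp2j5 sits high with its 3 points close together.

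The Cyp2d subfamily held the most abundant of the 87 members in S1. These enzymes oxidise many amine drugs, and several act on steroids. Cyp2d26 had 812 TPM in S1 against 145.1 in S2 and 60.5 in S3. Its S1 level was 5.60 times that of S2 and 13.4 times that of S3. Cyp2d22, often treated as the mouse counterpart of the main human drug-metabolising CYP2D enzyme, was at 25.8, 17.3 and 5.1 TPM, 5.06-fold higher in S1 than in S3. Both had the order S1, S2, S3 from highest to lowest, as did 10 of the 33 members. Markers of hepatocytes, which also express Cyp2d26, had sums of 193.4, 38.3 and 18.6 TPM over 4 genes. Ttr was at 184.7, 22.6 and 5.6 TPM and Alb at 8.5, 3.9 and 0.4, while Apoa1 was lowest in S1 (0.2, 7 and 10.4), as was Serpina1a (0, 4.8 and 2.2). Their part in the Cyp2d26 values was not tested.

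Cyp2d12 and Cyp2d9 had other profiles. Cyp2d12 was at 30.3, 56.3 and 0.9 TPM. Cyp2d9, a steroid hydroxylase known for male-biased levels in liver, was at 0.5, 80.9 and 92.8 TPM. So the 2 genes were within 2-fold of each other in S2, while Cyp2d12 was the higher in S1 and Cyp2d9 in S3. They are neighbours among the members on chromosome 15 (Cyp2d9 at 82452377 to 82456827 and Cyp2d12 at 82555043 to 82559413), 98.2 kb apart. The remaining 4 Cyp2d members, Cyp2d10, Cyp2d11, Cyp2d34 and Cyp2d40, did not exceed 0.5 TPM. The Cyp2d9 promoter was close in sequence to those of 2 of these: it matched Cyp2d11 at 91.9% of 234 aligned bases and Cyp2d10 at 85.0% of 246. Transcripts of these genes were not compared. Where they are as alike, reads may be shared between copies, and the values of Cyp2d9, Cyp2d10 and Cyp2d11 would be uncertain to that extent.

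The 2 Cyp2a genes that were detected ran in opposite directions between S1 and S3, while in S2 both were within 2-fold of their highest. Cyp2a4, a testosterone hydroxylase known for female-biased levels in mouse liver, had 0.5 TPM in S1 against 613.2 in S2 and 937.8 in S3. Cyp2a5, the coumarin and nicotine hydroxylase, had 34.4, 57.3 and 4.9 TPM. Cyp2a5 was thus 7.02-fold higher in S1 than in S3 and 11.7-fold higher in S2 than in S3, while Cyp2a4 was 1.53-fold higher in S3 than in S2. S1 was the segment where Cyp2a5 exceeded Cyp2a4. In S3 Cyp2a4 ranked first among the 87 members. The genes lie on chromosome 7 (Cyp2a4 at 26307192 to 26315088 and Cyp2a5 at 26835339 to 26843264), 520 kb apart, with Cyp2b23, Cyp2b19 and Cyp2g1 between them, each under 1 TPM. Their promoters, printed above, were identical at 98.4% of the aligned bases. The 2 genes are near-identical copies, and the S3 value of Cyp2a5 in particular could hold reads that came from Cyp2a4. How the authors' counting divided such reads was not given in the sources used here. Cyp2a12 and Cyp2a22 did not exceed 0.1 TPM.

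Cyp2j genes encode arachidonic acid epoxygenases and hydroxylases. Cyp2j5, long known as an abundant kidney P450, had 560.7, 607.5 and 421.3 TPM. It differed less than 2-fold between any segments, 1.44-fold between S2 and S3. Cyp2j11 was at 2.6, 277.2 and 252.2 TPM, so 106.6-fold higher in S2 and 97-fold higher in S3 than in S1. The subfamily's share of the P450 pool was 32.9% in S1, 38.6% in S2 and 36.1% in S3. Cyp2j11 accounts for most of what S2 and S3 held beyond Cyp2j5.

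Other Cyp2j members were low. Cyp2j9 was at 5.4, 9.5 and 7.1 TPM and Cyp2j6 at 7.2, 4.6 and 3.6, both under 2-fold on the log2(TPM + 1) scale. Cyp2j7, which RefSeq lists as a pseudogene, was listed at 0 in S1 and at 2.7 and 2.4 TPM in S2 and S3, the same side as Cyp2j11. Whether these low values hold reads of Cyp2j11 was not tested. Cyp2j13 was at 0.6, 0.4 and 1.1 TPM, and Cyp2j8 and Cyp2j12 did not exceed 0.5. Cyp2j5 (96627432 to 96664171) and Cyp2j11 (96294508 to 96348693) lie 279 kb apart on chromosome 4, with Cyp2j8, Cyp2j6 and Cyp2j9 between them.

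**Figure D3:**
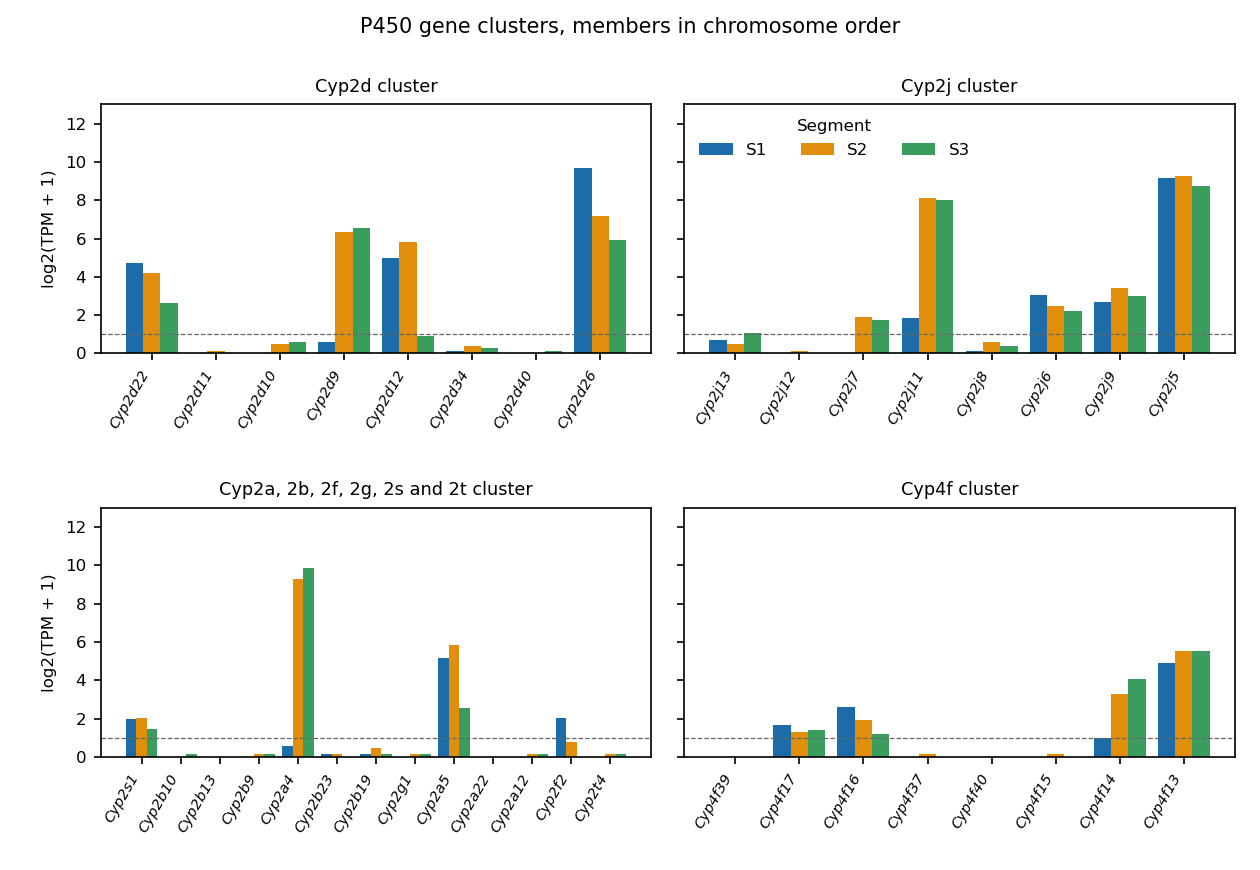
Levels as log2(TPM + 1) (vertical axis) of the members of 4 P450 gene clusters, placed in chromosome order (not to distance), with 1 bar per segment and a dashed line at 1 TPM. Each cluster holds members under 1 TPM beside members of high level, and Cyp2d9 and Cyp2d12, next to each other, are opposite in S1 and S3.

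Cyp2e1 and Cyp4b1 were the 2 members at least 2-fold higher in S2 than in both other segments, beside 5.22% of all genes compared. Cyp2e1, which oxidises ethanol, acetaminophen and small solvents, had 2.6 TPM in S1 against 93.7 in S2 and 0.2 in S3. It was 36.0-fold higher in S2 than in S1. Cyp4b1, known for activating aromatic amines and plant furans, was at 95.9, 196.8 and 16.7 TPM, 2.05-fold higher in S2 than in S1 and 11.8-fold higher than in S3. Its S1 to S2 difference of -1.03 lay just past the threshold. Among the 87 members, Cyp4b1 was the third most abundant in S1 and the fourth in S2.

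Of the 15 Cyp2c members, Cyp2c23 was the main transcript. It encodes a kidney epoxygenase of arachidonic acid, and it had 45, 47.9 and 8.7 TPM, 5.51-fold higher in S2 than in S3. It lies apart from the other Cyp2c genes on chromosome 19 (44005022 to 44029256). Cyp2c68 had 1.8 TPM in S1 but was listed at 0 further down, and Cyp2c69 was at 1.4, 0.3 and 0 TPM. Their promoters were identical at 94.3% of 246 aligned bases and that of Cyp2c69 at 98.6% of 220 with Cyp2c40. Promoter identity does not give the identity of transcripts, and whether values this low rest on shared reads was not tested. The other 12 Cyp2c genes did not exceed 0.1 TPM. The epoxygenases Cyp2c23 and Cyp2j5 thus differed: from S2 to S3 Cyp2c23 was lower by more than 2-fold and Cyp2j5 by less.

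The Cyp4f enzymes hydroxylate the end of fatty acids and leukotrienes. Cyp4f13 differed less than 2-fold, at 28.4, 45.6 and 45.3 TPM. Cyp4f14 was at 1.0, 8.7 and 15.5 TPM, 15.5-fold higher in S3 than in S1, although the 2 genes lie 7.31 kb apart on chromosome 17. Cyp4f16 ran the other way at 5, 2.8 and 1.3 TPM, 3.85-fold higher in S1 than in S3, and Cyp4f17 was at 2.2, 1.5 and 1.6. The other 5 were under 1 TPM, the highest being Cyp4f18 at 0.8 TPM in S2, the closest member below the level used.

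P450s of sterol and steroid metabolism were few. Cyp27a1, the mitochondrial sterol hydroxylase that takes part in bile acid synthesis, was at 69.8, 35 and 9.5 TPM, 7.35-fold higher in S1 than in S3. Its difference between S1 and S2 was 0.98, just short of the threshold. Cyp7b1, an oxysterol hydroxylase, was at 0.1, 0.5 and 3.3 TPM and was the 1 member at least 2-fold higher in S3 than in both others (2% of all genes compared). Cyp39a1, another oxysterol hydroxylase, was at 1.2, 0.5 and 0.2 TPM, and Cyp46a1, the cholesterol hydroxylase of neurons, at 1.7, 0.3 and 0.1. Cyp7a1 and Cyp8b1, enzymes of bile acid synthesis in liver, did not exceed 0.5 TPM. Of the steroid hormone enzymes, Cyp19a1 (aromatase) was at 0.5, 1.3 and 0.4 TPM and Cyp17a1 at 0.2, 1.2 and 0.3. Cyp11a1, Cyp11b1, Cyp11b2 and Cyp21a1 did not exceed 0.2 TPM. The 4 adrenal cortex markers (Star, Nr5a1, Mc2r and Hsd3b1) were all below 1 TPM, with sums of 0.6, 1.5 and 1.1.

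Single members of other subfamilies completed the detected set. Cyp20a1, an enzyme of unknown substrate, was at 4.9, 12.3 and 9 TPM. Cyp2u1, a fatty acid hydroxylase, was at 5.2, 1.4 and 0.3 TPM, and Cyp2f2, known for activating naphthalene in airway cells, at 3.1, 0.7 and 0. With Cyp2d26, Cyp2c68 and Cyp46a1 these made up the 5 members that were 2-fold or more above both other segments in S1, beside 6.03% of all genes compared. Cyp2s1 was at 2.9, 3.1 and 1.7 TPM. Cyp1b1, a target of the aryl hydrocarbon receptor that is also found in vessel and connective tissue cells, was at 0.2, 2.7 and 0.9 TPM, and Cyp26b1, which breaks down retinoic acid, at 0.1, 1 and 0.1.

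These low genes with their highest value in S2 stood beside markers of other cell types. The summed TPM of 8 endothelial markers was 69.5, 649.5 and 259.3, and all 8 passed 2-fold for S2 above each other segment. For 8 immune markers the sums were 57.3, 295.8 and 95.1, with 8 past 2-fold for S2 above S1 and 7 for S2 above S3. For 8 stromal and mural markers they were 2.7, 22.1 and 2.5, with 5 past 2-fold in each comparison. No gene of these 3 lists was listed at 0 in any segment. The part of such cells in the values of Cyp1b1, Cyp19a1, Cyp17a1 and Cyp26b1, and in Cyp2e1 and Cyp4b1, which were also highest in S2, was not tested. Of 12 proximal tubule markers, S1 had 3 at a level 2-fold or more above S2 and 6 as far below it. Against S3 the counts for S1 were 4 above and 5 below, and for S2 they were 2 and 0. Lrp2 was at 143, 228.3 and 259.1 TPM, Cubn at 46, 61.8 and 59.7, and Hnf4a at 112.2, 117.2 and 136.3. Lrp2, Cubn and Hnf4a were thus present in each segment and differed less than 2-fold. Slc5a2, the glucose carrier of S1, was at 2808.1, 1.3 and 0.5 TPM, and Slc22a7, an anion carrier of later segments, at 0.7, 877 and 1154.9. Aqp1 had its lowest value in S1, at 33, 382.7 and 561 TPM. Slc22a6 was highest in S2, as Cyp2e1 was, at 6, 216.8 and 1 TPM. Whether Slc22a6 and Cyp2e1 are linked was not tested.

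The 54 members below 1 TPM in all segments included whole drug-metabolising subfamilies. All 9 Cyp3a genes, the main drug oxidases of liver and gut, were below it, with sums of 0.2, 0.9 and 0.1 TPM in S1, S2 and S3. All 5 Cyp2b genes, known for induction by phenobarbital, summed to 0.2, 0.6 and 0.3 TPM. Cyp1a1 and Cyp1a2, induced by dioxin-like compounds, did not exceed 0.1 TPM. Also below were 12 of 15 Cyp2c, 4 of 8 Cyp2d, 2 of 8 Cyp2j, 2 of 4 Cyp2a and 5 of 9 Cyp4f genes, and Cyp2g1, Cyp2t4, Cyp2w1, Cyp4v3, Cyp4x1, Cyp26a1 and Cyp26c1, besides the sterol and steroid genes named above. Of the 54, 15 were listed at 0 in all 3 segments. With no depth known, a value of 0 is a listed value and sets no upper limit on expression.

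**Figure D4:**
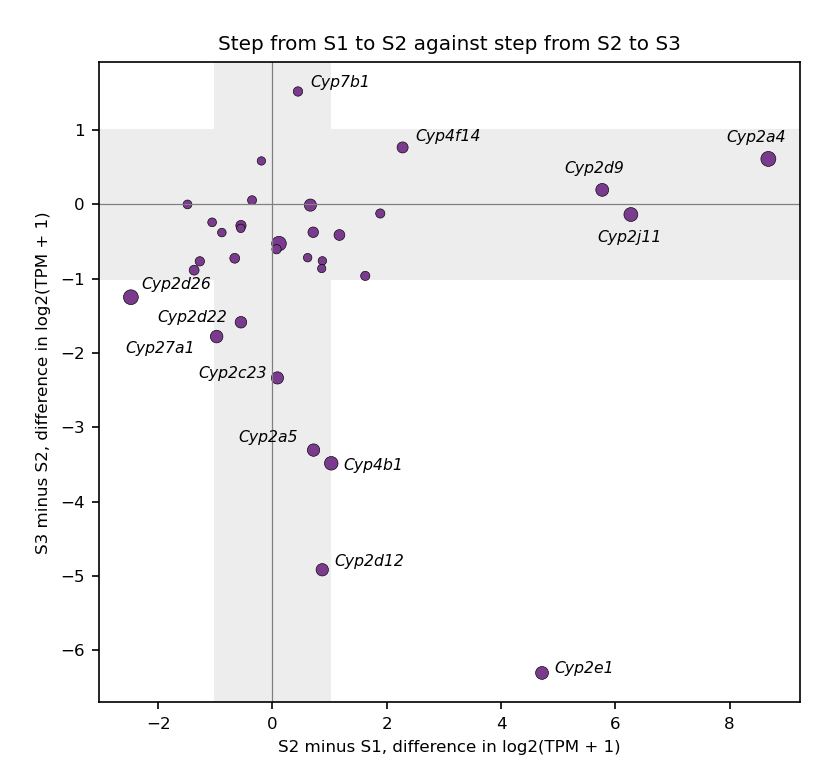
Change from S1 to S2 (horizontal axis) against change from S2 to S3 (vertical axis) for the 33 detected P450 members, both as differences in log2(TPM + 1). Each point is a gene with its area growing with its highest level, the grey bands mark less than 2-fold, and Cyp2a4, Cyp2j11 and Cyp2d9 lie far right within the horizontal band while Cyp2d12, Cyp4b1 and Cyp2e1 lie at the bottom.

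The upstream windows were searched on both strands for 4 motifs. The first, TATAAA, is the core promoter element of many tissue-specific genes. CAAAGTCC is the core that HNF4 binds, and the third, GTTAAT, belongs to the sites of HNF1. TTCNNNGAA is the form that STAT factors bind. A window was given for 24 of the 33 detected members, and no matches of different motifs overlapped. TATAAA was found in 7 of the 24, beside 13% of 27025 promoters of the same length. CAAAGTCC was found in 4 (Cyp2a4, Cyp2a5, Cyp2c68 and Cyp2c69), beside 1.22%. GTTAAT was found in the same 4 and in Cyp2d26, beside 6.52%, and TTCNNNGAA in Cyp2j11, Cyp4b1, Cyp4f13 and Cyp19a1, beside 7.18%. Windows of members below 1 TPM in all segments held these motifs too. TATAAA and CAAAGTCC were found in a larger share of these windows than of those of detected members, GTTAAT and TTCNNNGAA in a smaller share. CAAAGTCC lay in Cyp2c40, Cyp2c65, Cyp2c66, Cyp2c67, Cyp2c70, Cyp3a11, Cyp3a16, Cyp3a41a, Cyp3a41b, Cyp4f18 and Cyp8b1. TATAAA lay in Cyp1a1, Cyp1a2 and Cyp8b1 among others, GTTAAT in Cyp2c40 and Cyp4f40, and TTCNNNGAA in Cyp2j12. The matches are thus not particular to the detected members. Members of 1 cluster share sequence and are not separate instances. Cyp2a4 and Cyp2a5 hold the same 3 motifs, with the 4 differing bases outside them, although their levels ran differently. In Cyp2d26 and Cyp2d9 the TATAAA match lay 31 and 28 bases before the start on the opposite strand. In Cyp2j5 it lay 128 bases before the start, and Cyp2j11 had none in this window. Such matches describe letters and do not show binding.

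Genes that serve P450 enzymes were read from fixed lists. Por, the P450 reductase, had 179.8, 496.3 and 794.5 TPM, a log2 difference of -2.14 between S1 and S3. Cyb5a, cytochrome b5, was at 1020.1, 1936.4 and 1561.4 TPM, while Cyb5b, its mitochondrial relative, was at 165.1, 62 and 40.9. Fdx1, the ferredoxin of mitochondrial P450s, was at 205.8, 172.1 and 214.5 TPM, and Fdxr, its reductase, at 11.8, 7.1 and 4.5. Of 11 detected electron donors and partners, 2 differed 2-fold or more between S1 and S2 (Cyb5b higher and Por lower in S1), beside 24.3% of all genes compared. Between S1 and S3 there were 5 (3 higher, 2 lower in S1), beside 23.6%. By value, Por thus ran opposite to Cyp2d26 and alongside Cyp2a4, while Cyp2j5, Cyp4b1, Cyp2e1 and Cyb5a were highest in S2. A link between Por and any member was not tested.

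Of 8 detected heme synthesis genes, 7 differed less than 2-fold in each comparison. Most genes did so too: of the 16053 compared, 33.3% passed 2-fold in any comparison. The exception among the 8 was Cpox, coproporphyrinogen oxidase, at 50.1, 21.5 and 1.9 TPM. Alas1, the rate-limiting enzyme, was at 564.2, 438 and 411.8 TPM. Hmox1, which breaks heme down, was at 55.9, 18.2 and 22.1. Ephx2, the soluble hydrolase that opens the epoxides made by Cyp2c and Cyp2j enzymes, was at 225.4, 103.7 and 28.6 TPM, a difference of 2.94 between S1 and S3. Ephx1, the microsomal hydrolase, was at 2.5, 10.8 and 4.9.

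Of 17 detected regulators of P450 genes, S1 had 3 at a level 2-fold or more above S2 and 5 as far below it (6.62% and 17.7% of all genes compared). Against S3 the counts were 6 above and 5 below (10.5% and 13.1% of all genes). Between S2 and S3 there were 0 either way, beside 11% of all genes. Ghr, the growth hormone receptor, was at 176.4, 1126 and 1556.1 TPM. Stat5a, a factor downstream of growth hormone and prolactin receptors, was at 2.7, 6.8 and 10.9. Rxra, the shared partner of several nuclear receptors, ran the other way at 41, 15.4 and 9. The receptors that sense foreign compounds were low: Ahr was at 1.1, 3 and 2 TPM, Nr1i2 (PXR) at 2.6, 1.8 and 0.6, and Nr1i3 (CAR) at 0.7, 1.3 and 0.8.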

How the data were processed

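Per the labels' protocols, RNA of dissected tubules was made into cDNA with a SMARTer V4 kit and sequenced in pairs; no molecular identifiers or strand marking are named. Per the submitters' processing notes the build was mm10, with STAR and RSEM among the tools named for the series, without roles or versions. The authors deposited TPM, rounded to 1 decimal, and how libraries were combined was not given in the sources used here. Of 8 value columns, the 3 female columns were used and the other 5 were not. ATAC-seq (24 samples) was left out.

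TPM values were compared as log2(TPM + 1) over the 16053 genes with at least 1 TPM in a segment, with a threshold of 1. A limma fit was planned only if values per library were found, and none were. Every member with at least 1 TPM is named, with other genes from 13 fixed lists of 105 genes. Of these, besides those given in the report, the thick limb to collecting duct markers summed to 34.6, 32.6 and 34.7 TPM (S1, S2, S3) and podocyte markers to 2.2, 16 and 4.5. The even sums of the former hide opposite directions: Umod was at 0.2, 21.1 and 29.1 TPM and Fxyd4 at 32.3, 7.4 and 0.9. The other genes of that list did not exceed 3 TPM. The members and lists were chosen with earlier results of these data known. The rule that shows sequences by protein identity could not be applied, so promoters were used. Positions and promoters came from RefSeq tables of GRCm38.p6, matched by symbol: all 87 members had a position and 70 a promoter, with the first taken where several were given. Promoters were aligned with Biopython 1.88 and kept at 200 aligned bases or more. The code (Python 3.11.15, pandas 2.3.3) was tested on simulated data.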

Additional observations from a re-analysis of the deposited data

How the results depend on the processing

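With 1 value per segment no replicate could be left out, and the precision that depth sets is unknown. No paired analysis was possible because the columns carry no replicate numbers. Pseudocount 0.1 gave 18 members higher and 2 lower in S2 than in S3, in place of 8 and 1. A filter of 5 TPM, which 19 members pass, gave 2 members higher in S1 than in S2, in place of 5, and 0 lower in S2 than in S3, in place of 1. Quantile normalization gave 8 members higher in S1 than in S2, in place of 5, and moved the median of all genes by 0.27 for S1 minus S2 and by -0.17 for S2 minus S3. Rescaling without mitochondrially encoded genes, Gpx3 and Kap moved the first of these by -0.16. The other counts stayed within 1.5 times their values under these alternatives, no filter and median-of-ratios scaling, as did the summed levels and the 54 members below 1 TPM under the 3 scalings. Over 540 single-gene differences, 511 kept their side of the 2-fold threshold, 29 did not, and 0 past it changed sign. Of the 511, the 99 with no filter and the 57 with the 5 TPM filter were bound to do so, since a filter leaves a gene's difference unchanged. The counts with no filter were fixed as well, because genes under 1 TPM cannot differ by 1 on the log2(TPM + 1) scale. Of the 29, 19 came with pseudocount 0.1, among genes of a few TPM such as Cyp1b1, Cyp17a1 and Cyp26b1. Quantile normalization gave -0.98 for Cyp20a1 between S1 and S2, just short of the threshold.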

Other observations

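Of 30 P450 pseudogene symbols in the table, which the rule on symbols leaves out, 2 reached 1 TPM. Cyp2j7-ps2 was listed at 0 in S1 and at 4.1 TPM in S2 and 2.9 in S3, the same order as Cyp2j7 and Cyp2j11. Cyp2d37-ps was at 0, 0.1 and 1 TPM, so its highest value was in S3, as for Cyp2d9. Whether these low values hold reads of the higher genes of their subfamilies was not tested.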
